A study of Mus musculus with 15 samples.

Results

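Promoters that serve 2 or more genes were chosen from the probe annotation of a mouse promoter array. A probe was taken when its annotation placed it within 1000 bp of the starts of at least 2 differently named genes. Of 80567 promoter probes, 5515 met this rule, of which 5464 named 2 genes, 49 named 3 and 2 named 4. Averaged under the array's gene label within each of the 2 array parts, they gave 1787 shared-promoter regions, 801 on part 1 and 986 on part 2, of 23317 regions in all. The other regions were 13366 near the start of 1 gene and 8164 lying more than 1000 bp from any start or listed with none. No measured value entered the choice. A shared-promoter region held a median of 3 probes and at most 16, and 341 rested on 1 probe. Several regions can lie at the same pair of genes, because the array gave separate labels to its probes there, so the 1787 regions came from 810 distinct sets of gene names.

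A head-to-head, or bidirectional, promoter lies between genes on opposite strands whose transcription starts are close together and whose RNAs run away from each other. Such promoters are common in mammalian genomes, are usually rich in CpG dinucleotides, and often serve housekeeping genes such as those for DNA repair, mitochondrial proteins and histones. Cytosines in CpG dinucleotides can carry a methyl group, placed by the enzymes Dnmt1, Dnmt3a and Dnmt3b, while CpG-rich promoters are mostly kept free of it.

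The study compared 2 mouse embryonic stem (ES) cell lines, the wild-type line J1 and its triple-knockout derivative TKO, which lacks all 3 of those enzymes. Both grew with LIF and fetal bovine serum and were taken off feeder cells for 2 passages before collection. Methylated DNA was captured with an antibody to 5-methylcytosine (MeDIP) from 2 ug of sheared DNA, and each array carried J1 DNA in Cy3 beside TKO DNA in Cy5. There were 7 arrays for each part, 14 in all, with no dye swap. RNA of the lines was compared on 3 expression arrays, with dyes exchanged on replicate 2 and J1 likely in Cy5 on replicates 1 and 3. Each genotype was 1 cell line, so p-values here rest on the spread between arrays alone, which may be technical, and line and genotype cannot be told apart.

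MeDIP values are log2 ratios of J1 over TKO as the arrays are labelled, with the median of all promoter probes on an array set to 0. By this rule a methylated promoter should lie toward J1, since TKO cells lack the enzymes. Over all regions, however, 1224 of 23317 were called toward the labelled TKO side and 80 toward the labelled J1 side. The direction rests on the dye labels alone, so the sides are called the labelled J1 side and the labelled TKO side, and neither is read as the methylated line. Turning the sign would exchange the sides of every MeDIP value given here. Between 86.8% and 99.1% of promoter probes were well above background in both channels of an array, and among probes at shared promoters 98.6% were above it in each channel. On the RNA arrays Dnmt3b was lower in TKO by a log2 ratio of -2.51 ± 0.19 (SD, n = 3), Dnmt3a by -2.36 ± 0.18 (SD, n = 2) and Dnmt1 by -1.07 ± 0.25 (SD, n = 2). The third RNA array had 8386 uneven spots, which were left out, so some genes were measured on 2 arrays.

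The shared promoters were mostly head to head. The 1787 regions held 832 pairs of gene names, of which 725 lay on opposite strands, 98 lay on the same strand and 9 had no usable strand for a partner. All pairs on opposite strands are counted here as head to head. The distance between the starts of head-to-head pairs had a median of 278 bp with quartiles of 141 and 558 bp, from -851 bp, where the genes overlap, to 1938 bp. The genes of 52 of these pairs overlapped at their starts, so their RNAs first run across each other, and 335 pairs had their starts 0 to 300 bp apart. For 26 pairs both old names now belong to 1 gene, such as Dab2 with D630005B22Rik, and all but 1 of these lay on the same strand. Of 1619 gene names, 1575 were matched to a current gene of the RefSeq annotation.

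The stretches between the starts of 8 head-to-head pairs show how different such promoters can be. They are printed 5′ to 3′ on the plus strand of RefSeq assembly GRCm38.p6, with each CG dinucleotide, the place where methylation can sit, in capitals. The starts are those of the RefSeq promoter table and can differ from the array's. The first 5 are well-studied pairs or pairs with a sparse CpG stretch: the mitochondrial chaperonins, a ribosomal protein beside a Mediator subunit, a mitochondrial ribosomal protein beside the mitochondrial seryl-tRNA synthetase, a tRNA methyltransferase beside the nuclear transport factor Ranbp1, and the sterol transporter pair.
Hspd1 and Hspe1 (chr1:55087933-55088147): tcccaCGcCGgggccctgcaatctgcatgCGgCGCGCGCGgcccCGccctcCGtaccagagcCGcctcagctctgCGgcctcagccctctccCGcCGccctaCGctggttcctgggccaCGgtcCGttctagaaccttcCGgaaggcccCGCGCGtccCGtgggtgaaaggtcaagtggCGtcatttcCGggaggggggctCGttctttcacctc
Med22 and Rpl7a (chr2:26910643-26910806): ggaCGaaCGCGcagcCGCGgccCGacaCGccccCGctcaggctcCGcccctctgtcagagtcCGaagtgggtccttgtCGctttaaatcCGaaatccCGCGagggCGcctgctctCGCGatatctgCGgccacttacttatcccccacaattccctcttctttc
Mrps12 and Sars2 (chr7:28741822-28741967): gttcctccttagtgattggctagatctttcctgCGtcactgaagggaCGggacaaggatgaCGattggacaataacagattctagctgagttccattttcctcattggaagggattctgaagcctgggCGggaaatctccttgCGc
Ranbp1 and Trmt2a (chr16:18248695-18248882): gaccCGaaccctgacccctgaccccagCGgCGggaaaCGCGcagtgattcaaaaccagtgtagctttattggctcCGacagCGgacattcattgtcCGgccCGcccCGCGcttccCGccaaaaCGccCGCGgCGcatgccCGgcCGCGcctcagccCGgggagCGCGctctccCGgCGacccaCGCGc
Abcg5 and Abcg8 (chr17:84683012-84683120): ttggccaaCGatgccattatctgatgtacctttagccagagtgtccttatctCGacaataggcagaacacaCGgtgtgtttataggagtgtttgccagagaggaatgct
The other three come from regions whose MeDIP ratio left 0 by the test below, the Rbak pair on the labelled TKO side and the Ro60 and Calr3 pairs on the labelled J1 side.
Rbak and Spdye4b (chr5:143180776-143181016): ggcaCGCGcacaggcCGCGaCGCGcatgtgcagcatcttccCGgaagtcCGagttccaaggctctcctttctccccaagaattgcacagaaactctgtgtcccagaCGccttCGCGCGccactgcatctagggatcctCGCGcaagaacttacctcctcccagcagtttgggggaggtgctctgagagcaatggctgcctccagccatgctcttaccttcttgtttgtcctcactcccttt
Ro60 and Uchl5 (chr1:143777052-143777277): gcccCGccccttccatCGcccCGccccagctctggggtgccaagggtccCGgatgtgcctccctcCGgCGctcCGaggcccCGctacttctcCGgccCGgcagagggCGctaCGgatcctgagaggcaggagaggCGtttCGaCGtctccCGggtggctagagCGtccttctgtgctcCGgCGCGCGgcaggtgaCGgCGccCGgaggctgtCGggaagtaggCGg
Calr3 and 1700030K09Rik (chr8:72443779-72443879): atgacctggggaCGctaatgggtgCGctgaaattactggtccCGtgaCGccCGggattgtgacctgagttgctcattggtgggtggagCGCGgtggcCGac
The Ranbp1 stretch has 26 CpGs in 188 bases and the Ro60 stretch 26 in 226, whereas the Abcg5 stretch has 3 in 109 and the Mrps12 stretch 5 in 146. The Hspd1 stretch holds 24 CpGs in 215 bases, the Rpl7a stretch 18 in 164, the Rbak stretch 14 in 241 and the Calr3 stretch 8 in 101. Over the 294 pairs whose starts lay 20 to 250 bases apart, the stretch had a median of 9.0 CpGs per 100 bases, with quartiles of 6.0 and 11.9. The Abcg5 stretch, at 2.8 per 100 bases, and the Mrps12 stretch, at 3.4, thus lay below the lower quartile.

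Genes at shared promoters had CpG-rich starts. A RefSeq window of 300 bp, from 250 bp before to 50 bp after the start, was found for 1306 of 1549 such genes. It held a median of 22 CpGs with quartiles of 15 and 30, beside 16 for the 9619 genes at promoters of 1 gene and 7 over all 27025 windows. An island-like window, with an observed to expected CpG ratio of at least 0.6 and at least 50% G and C, was present at 74.4% of genes with shared promoters, at 51.2% of genes at promoters of 1 gene and at 34.1% of all windows. Head-to-head regions had a median of 23.5 CpGs per window and same-strand regions 6.0.

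Short sequence motifs were counted on both strands of the same windows as a description. The ETS or GABP core CCGGAAG was present in 26.1% of windows at shared promoters, 12.3% of windows at promoters of 1 gene and 9.12% of all windows. The YY1 core AAGATGGC was in 6.81%, 3.29% and 2.88% of them. The SP1 box GGGCGG was in 64.2%, 51.9% and 35.9%, the palindromic NRF1 consensus, without a mismatch, in 1.68%, 1.48% and 0.977%, and the CCAAT box of NF-Y in 42.2%, 38.3% and 37.9%. The E-box CACGTG was in 8.73%, 8.97% and 7.24%. The TATA box TATAAA went the other way, at 8.19%, 12.5% and 14.2%. Of the printed stretches, Abcg5 and Abcg8 alone held the TATA letters, while the Rbak and Hspd1 stretches held the ETS core.

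Shared promoters gave a narrow and slightly positive MeDIP ratio. Their median log2 ratio was 0.112, with quartiles of 0.028 and 0.185, and 1463 of 1787 regions (81.9%) were above 0. Promoters of 1 gene had a median of 0.021 with quartiles of -0.117 and 0.115 and 54.8% above 0, and the regions beyond 1000 bp a median of -0.116. On the 7 arrays of part 1 the median of the shared promoters ran from 0.08 to 0.141 and that of promoters of 1 gene from 0.004 to 0.027. On part 2 the ranges were 0.077 to 0.141 and -0.002 to 0.033. The median of the shared promoters therefore lay higher on every array of both parts, with no overlap between the ranges of the medians. The regions themselves overlapped widely, as the quartiles show. A setting with normexp background correction, an offset of 50 and no dye normalization by the scanner drew the medians closer. The gap between the classes was then 0.038 in place of 0.091, still above 0. This setting, called normexp below, changed several steps at once, and their separate effects were not tested. Probe position moved with the class: shared promoters had a median distance of 226 bp from the nearest start and promoters of 1 gene 327 bp. Within 250 bp the medians were 0.116 and 0.053, beyond that up to 500 bp 0.11 and 0.038, and from there to 1000 bp 0.077 and -0.032. Probe brightness moved with class and distance as well. Its median relative log2 value in the same steps was 0.656 and 0.61, then 0.245 and 0.092, then -0.534 and -0.601. Probes at shared promoters were thus brighter in each step, and the part of brightness in the class difference was not tested.

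**Figure D1:**
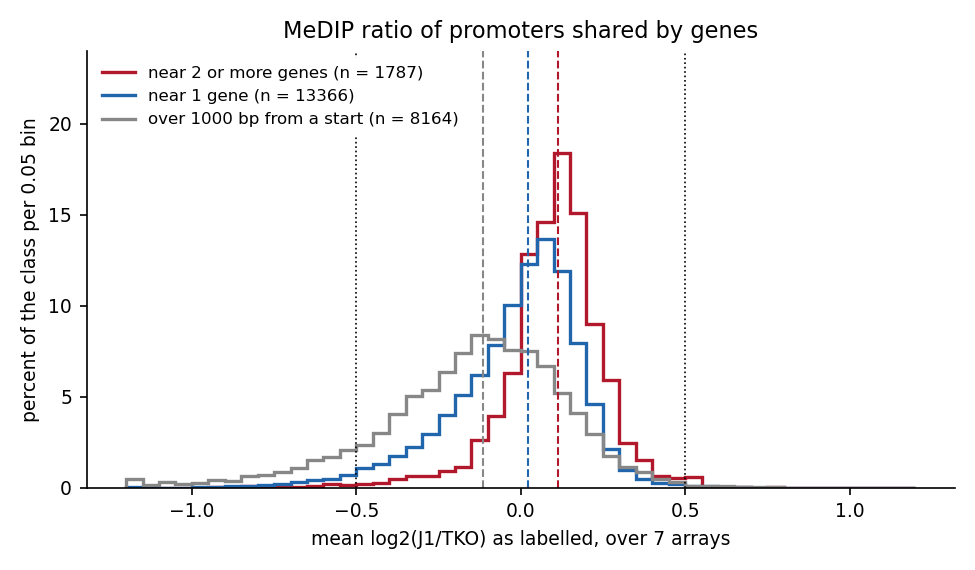
Distribution of MeDIP log2 ratios (J1 over TKO as labelled) over regions, as percent of regions per bin of 0.05, for shared promoters, promoters of 1 gene and regions beyond 1000 bp. Dashed lines mark the medians of 0.112, 0.021 and -0.116, dotted lines the size limit of 0.5 used for calls, and values beyond the axis sit in the end bins; the shared promoters form the narrowest peak.

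CpG content moved with the ratio at both kinds of promoter. Each region was classed by the mean CpG count over its genes' windows, with fractions dropped. Shared promoters whose windows held 0 to 5 CpGs had a median log2 ratio of -0.115 (75 regions), beside -0.134 for promoters of 1 gene (2517 regions). With 6 to 15 CpGs the medians were 0.111 and 0.012, with 16 to 25 they were 0.121 and 0.065, and with 26 or more 0.114 and 0.079. The classes thus lay close together among CpG-poor promoters, and the shared promoters lay higher in the other 3 classes of CpG content. The arrangement of the genes moved with the ratio too. Head-to-head regions had a median of 0.116 (1674 regions) and same-strand regions -0.029 (88 regions). Among head-to-head regions the distance between the starts made little difference up to 1000 bp: the medians were 0.119 for overlapping genes, 0.112 at 0 to 300 bp and 0.122 from there to 1000 bp. Beyond 1000 bp the median was 0.074 over 88 regions. Chromosome 8 stood apart, with a median of 0.189 over its 130 shared-promoter regions and 0.123 over its promoters of 1 gene, beside 0.109 and 0.017 on the other chromosomes.

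**Figure D2:**
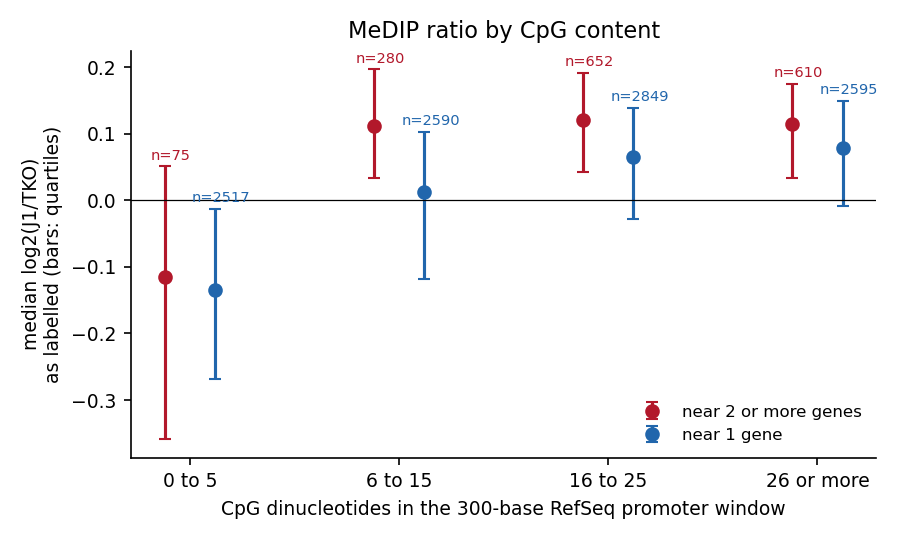
Median MeDIP log2 ratio (J1 over TKO as labelled) with quartiles, by the mean number of CpGs in the 300 bp RefSeq promoter windows of a region's genes (fractions dropped), for shared promoters and promoters of 1 gene. Both classes are below 0 at 0 to 5 CpGs, and the shared promoters lie above the promoters of 1 gene at 6 CpGs and more.

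A region was called when limma's moderated test against 0 gave a Benjamini-Hochberg adjusted p under 0.05 over all 23317 regions and its mean was at least 0.5 from 0. Toward the labelled TKO side 15 of the 1787 shared promoters were called (0.839%), beside 5.25% of all regions and 2.62% of promoters of 1 gene. Toward the labelled J1 side 13 were called (0.727%), beside 0.343% of all regions and 0.232% of promoters of 1 gene. With no limit on size 107 shared promoters (5.99%) passed toward the TKO side, beside 29.2% of all regions, and 838 (46.9%) toward the J1 side, beside 23.0%. The share called was thus below the background on the labelled TKO side and above it on the labelled J1 side under both rules. The normexp setting left 2 calls on the TKO side (0.112%, beside 0.523% of all regions) and 1 on the J1 side (0.056%, beside 0.0858%), so that the J1-side share then lay below the background.

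The regions called on the labelled TKO side included odorant receptor, sperm and kidney collagen genes. Of the 15 called, 7 were head to head and 7 were on the same strand, beside 1674 and 88 of all 1787 shared promoters. Of the 14 calls with a RefSeq window 7 held at most 5 CpGs on average over their genes, beside 71 of all 1617 shared promoters with a window. The lowest was the odorant receptor region Olfr173, shared with Olfr172, whose 7 arrays ran from -1.31 through a median of -0.97 to -0.54, with a mean of -0.94 ± 0.27 (SD, n = 7, adjusted p = 0.000127). Every array was below 0, but 28.6% of the region's J1-channel spots were well above background, so its size is uncertain, and under normexp its value was 0.17. Other receptor regions, at Olfr1433, Olfr427 and MOR118-1, were called at -0.60 ± 0.17, -0.52 ± 0.24 and -0.52 ± 0.21 (SD, n = 7), with 71.4%, 33.3% and 47.6% of J1-channel spots above background. The names Olfr1433 and Olfr1434 at the first of these were matched to 1 current gene, so it is shared by the array's old names only. Such receptors form a large family of near-identical genes, so probes may also capture their copies.

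The pair of Capza3, a testis actin-capping protein, and Plcz1, the sperm phospholipase that activates the egg, ran from -1.42 through -0.78 to -0.52, with a mean of -0.81 ± 0.29 (SD, n = 7, adjusted p = 0.000284). All 7 arrays were below 0, and replicate 6 lay apart at the low end. The call was lost under normexp, at -0.34, and with only probes above background in both channels, at -0.26. The region of Dnase2b, a lens DNase, and Uox, the urate oxidase of liver, ran from -1.39 through -0.54 to -0.39 and averaged -0.68 ± 0.36 (SD, n = 7, adjusted p = 0.00147), but -0.22 and -0.19 with the same changes and no call. Zpbp, a sperm protein that binds the egg coat, shared a 1-probe region with LOC432534 that averaged -0.72 ± 0.42 (SD, n = 7, adjusted p = 0.00219). Here too every array lay below 0. Tcp10c, of a testis-expressed family of near-identical genes, ran from -0.73 through -0.61 to -0.43 and had the smallest adjusted p of these calls, 6.78e-05, but was no call under normexp (-0.34) or with the median over its probes (-0.33).

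Fv1, a gene that restricts mouse retroviruses, faces Miip. Its 1 probe ran from -1.53 through -0.78 to -0.48 and averaged -0.84 ± 0.37 (SD, n = 6, adjusted p = 0.00126), whereas the probe with the combined label of the pair averaged -0.48 ± 0.35 (SD, n = 7, adjusted p = 0.00754) and missed the size limit. The region of Rbak, a KRAB zinc finger repressor, and Spdye4b, of the Speedy family of cyclin-dependent kinase activators, printed above with its 14 CpGs, ran from -1.1 through -0.66 to -0.11. Its mean was -0.62 ± 0.36 (SD, n = 7, adjusted p = 0.00233), with every array below 0, and -0.21 with no call under normexp. Fancm, a DNA repair helicase, and Fkbp3, a prolyl isomerase, shared a region at -0.60 ± 0.35 (SD, n = 7, adjusted p = 0.00241), which was 0.15 under normexp and -0.29 where each probe had to clear background in J1 and TKO alike. The last calls were the same-strand regions of 2610042L04Rik at -0.76 ± 0.16 (SD, n = 6), of the secreted ribonucleases Rnase4 and Ang1 at -0.55 ± 0.21 (SD, n = 7) and of the salivary gland gene Smr3a at -0.50 ± 0.31 (SD, n = 7). The old names Smr1 and Smr3 were both matched to Smr3a, so that region too is shared by old names only. Rnase4 averaged -0.19 under normexp and again where each probe had to clear background in J1 and TKO alike, with no call. The calls at Rnase4 and MOR118-1 held in 6 of the 7 fits without 1 array, and those at Olfr427 and Smr3a in 5.

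Probes of the same pair did not always move together. At Col4a3 and Col4a4, which encode collagen chains of the kidney basement membrane, the 3 probes with the label Col4a4 ran from -0.93 through -0.49 to -0.42 and averaged -0.59 ± 0.19 (SD, n = 7, adjusted p = 0.000227). The probe with the label Col4a3 averaged 0.14 ± 0.22 and the probe with the combined label 0.11 ± 0.13 (SD, n = 7 each, adjusted p = 0.143 and 0.071). The difference between these labels was not itself tested. At Abcg5 and Abcg8, whose products join into the transporter that removes sterols from liver and gut cells, both labels lay together: the 4 probes of Abcg5 ran from -0.82 through -0.43 to -0.28, and the combined label from -0.71 through -0.56 to -0.1. Both averaged -0.48, with an SD of 0.20 and 0.21 (n = 7 each), and passed the test at adjusted p = 0.000604 and 0.000745 without reaching the size limit. Leaving out replicate 1, 3 or 4 moved Abcg5 to -0.52, -0.50 and -0.52, past that limit.

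**Figure D3:**
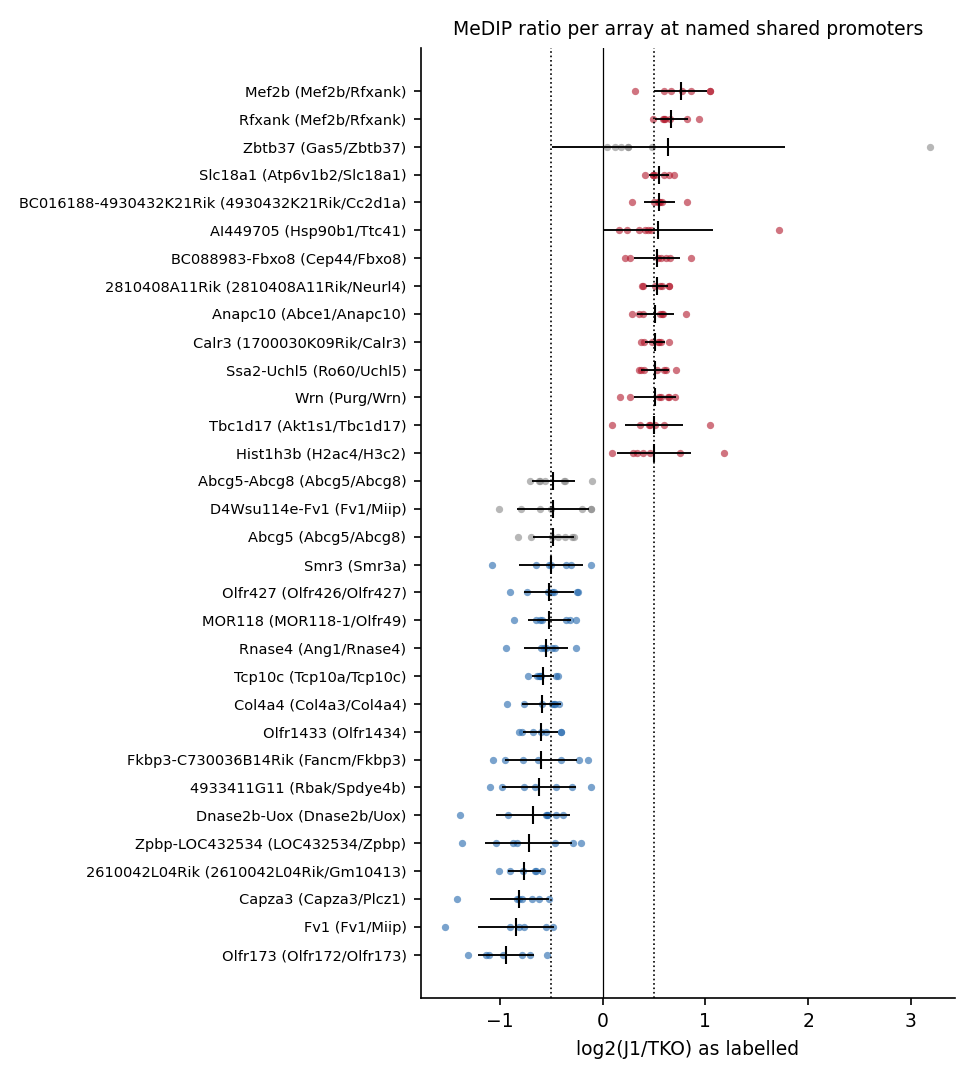
MeDIP log2 ratios (J1 over TKO as labelled) of the shared promoters called or named by rule, with 1 point per array and a bar for the mean ± SD. Blue marks calls on the labelled TKO side, red calls on the labelled J1 side and grey no call; Capza3 lies below 0 on all 7 arrays and Rfxank above 0 on all 7.

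Of the 13 regions called on the labelled J1 side 12 were head to head, as were 1674 of all 1787 shared promoters. Chromosome 8 held 8 of the 13, as it held 42 of the 80 J1-side calls over all regions and 20 of the 31 at promoters of 1 gene. Without chromosome 8 there were 5 calls on the J1 side (0.302%, beside 0.172% of all regions) and 15 on the TKO side (0.905%, beside 5.42%). Of the 11 J1-side calls with a RefSeq window, none held 5 or fewer CpGs, beside 71 of all 1617 shared promoters with a window. The median of the 11 was 19.5 CpGs, below the 23.0 of all shared promoters. The highest were 2 labels of 1 pair on chromosome 8, Mef2b, a MADS-box transcription factor, and Rfxank, a subunit of the complex that drives MHC class II genes. The Mef2b probe ran from 0.32 through 0.77 to 1.04 with a mean of 0.76 ± 0.26 (SD, n = 7, adjusted p = 0.000222). The Rfxank probes ran from 0.49 through 0.61 to 0.94 with a mean of 0.67 ± 0.16 (SD, n = 7, adjusted p = 8.12e-05). Both labels were above 0 on every array, and the Mef2b value stayed a call under normexp, at 0.56.

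On chromosome 8 the calls also took in Slc18a1, a vesicular monoamine transporter, with Atp6v1b2, a subunit of the vacuolar proton pump, at 0.55 ± 0.10 (SD, n = 7, adjusted p = 6.78e-05). The 1 probe with the combined label of Cc2d1a and 4930432K21Rik lay at 0.55 ± 0.15 (SD, n = 7). The pair's other labels were no calls, at 0.21 ± 0.07 for Cc2d1a and 0.19 ± 0.18 for 4930432K21Rik (SD, n = 7 each). Fbxo8, an F-box protein, with Cep44, a centriole protein, lay at 0.53 ± 0.22 (SD, n = 7). Anapc10, of the anaphase-promoting complex, with Abce1, which recycles ribosomes, lay at 0.51 ± 0.18, the helicase Wrn with Purg at 0.51 ± 0.20, and the testis chaperone Calr3 with 1700030K09Rik at 0.51 ± 0.10 (SD, n = 7 each). All 7 arrays were above 0 at each of these called regions. Leaving out 1 array at a time, however, the call was kept in 3 of 7 fits at Wrn, 4 at Anapc10, 5 at Calr3 and 6 at Fbxo8. The Fbxo8 region, with 57.1% of TKO-channel spots well above background, was 0.24 under normexp and 0.18 under that stricter probe filter, and no call in either. Just short of the limit was Vps35, of the retromer that sorts cargo from endosomes, which faces Orc6, of the origin recognition complex. Its label ran from 0.37 through 0.46 to 0.64 (mean 0.49 ± 0.10, SD, n = 7, adjusted p = 8.85e-05), the combined label averaged 0.45 ± 0.10 and the Orc6 label 0.29 ± 0.18 (SD, n = 7 each).

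Away from chromosome 8 the J1-side calls were 5. Ro60, an RNA-binding autoantigen, and Uchl5, a proteasome deubiquitinase, whose stretch of 26 CpGs is printed above, had a 1-probe region that ran from 0.35 through 0.53 to 0.71 and averaged 0.51 ± 0.14 (SD, n = 7, adjusted p = 0.000155). Neurl4 with 2810408A11Rik lay at 0.53 ± 0.11, Tbc1d17 with Akt1s1 at 0.50 ± 0.28, and the histone pair H2ac4 and H3c2 at 0.50 ± 0.36 (SD, n = 7 each). In the histone region 21.4% of TKO-channel spots were well above background, and histone genes are near-identical copies, so its size is uncertain. With 1 array left out at a time, the call was kept in 4 of 7 fits at Ro60 and in 5 at Tbc1d17 and at the histone pair. The region of Hsp90b1, the endoplasmic reticulum chaperone, and Ttc41 ran from 0.16 through 0.41 to 1.72 (mean 0.54 ± 0.53, SD, n = 7, adjusted p = 0.0228). Replicate 3 stood far above the other arrays there, and without it the mean was 0.34 and no call. At Zbtb37 and Gas5, a host gene of small nucleolar RNAs, replicate 3 stood apart still more. The 1 probe ran from 0.04 through 0.25 to 3.19, with a mean of 0.64 ± 1.13 (SD, n = 7, adjusted p = 0.152), and was no call.

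RNA was detected from most genes at shared promoters. Of 1549 such genes 1441 were on the expression array, and 1044 of these (72.4%) passed the scanner's background test in J1 on each of the 3 arrays, beside 52.2% of genes at promoters of 1 gene and 52.0% of all genes on the array. Of the 654 pairs with both genes on the array, both were detected in J1 at 364 (55.7%), 1 of them at 231 (35.3%) and neither at 59 (9.02%). In bulk RNA, fewer cells of a type and less RNA per cell cannot be told apart.

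RNA differences are given as log2 of TKO over J1. Of the 1059 genes at shared promoters that were tested, 113 (10.7%) were higher in TKO, beside 16.2% of all 13692 genes tested, and 193 (18.2%) were lower, beside 16.1%, by limma with a Benjamini-Hochberg adjusted p under 0.05 over all genes. Genes at promoters of 1 gene were higher at 19.4% and lower at 15.1%. The median log2 ratio was -0.046 at shared promoters, 0.019 at promoters of 1 gene and -0.011 over all genes. Changes of at least 2-fold were few: 6 genes rose (0.567%, beside 1.52% of all genes) and 2 fell (0.189%, beside 0.665%). These counts depend on the processing. With arrays centred on the median in place of loess, 10 genes at shared promoters were higher (0.944%, beside 2.61% of all genes) and 32 lower (3.02%, beside 3.57%), with medians of -0.15 and -0.089. The lower share was also below that of all genes with Agilent's processed signals (17.7% beside 18.7%), and the higher share was above it with no filter on dim probes (8.12% beside 7.27%). On chromosome 8 the 71 tested genes at shared promoters had a median of 0.144, with 25 higher and 5 lower, and the 988 on the other chromosomes a median of -0.059, with 88 higher and 188 lower.

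Markers of other cell types also differed between the lines, and their part in these RNA results was not tested. Of the primitive endoderm list, 9 of 9 tested genes of 13 were higher in TKO, and the summed signal of its 4 genes measured on all 3 arrays was 9.13 to 9.8 in J1 and 10.92 to 11.23 in TKO on a log2 scale, while Foxa2, Gata4, Pdgfra and Sox7 were not detected in either line. Of the trophoblast list, 5 of 6 tested genes of 11 were higher, with a summed signal of 3 genes of 12.36 to 12.94 in J1 and 14.81 to 15.35 in TKO, and Cdx2, Elf5, Eomes, Hand1 and Ascl2 were not detected. Of the fibroblast list 4 of 7 tested genes of 12 were higher, with Col3a1, Dcn, Lum, Postn and Thy1 not detected. Its summed signal of 3 genes was 9.8 to 10.34 in J1 and 10.25 to 10.78 in TKO, ranges that overlapped. Of the pluripotency list none of 8 tested genes of 12 was higher and 3 were lower, with a median log2 ratio of -0.23 and Sall4 and Utf1 not detected. Its summed signal of 3 genes was 15.58 to 16.18 in J1 and 15.93 to 16.55 in TKO. These ranges overlapped and lay higher in TKO, unlike the calls.

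Among the called genes that rose most, of those measured on all 3 arrays, were a basement membrane collagen pair and MHC genes. The highest was Dab2. It encodes an endocytic adaptor that marks primitive endoderm, is in that marker list and gave log2 ratios of 2.69, 2.19 and 2.27 on the 3 arrays (mean 2.38 ± 0.27, SD, limma adjusted p = 1.16e-06). All arrays were far above 0. Its partner name D630005B22Rik is now the same gene, so Dab2 is a shared promoter by the array's old names only. Its MeDIP region, on the same strand, averaged -0.43 ± 0.15 (SD, n = 7), and 0.14 under normexp.

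Col4a1 and Col4a2, which encode the main chains of basement membrane collagen and face each other on chromosome 8, rose together. Col4a1, also in the endoderm marker list, gave 1.86, 1.92 and 1.18 (mean 1.66 ± 0.41, SD, adjusted p = 2.52e-05). Col4a2 gave 1.35, 1.19 and 0.76 (mean 1.1 ± 0.31, SD, adjusted p = 9.96e-05), again with every array above 0. The MeDIP ratio of their promoter was small: 0.07 ± 0.05 at the Col4a1 label, 0.02 ± 0.07 at the Col4a2 label and 0.26 ± 0.10 at the combined label (SD, n = 7 each).

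Among genes of the MHC region, H2-DMb1, a chain of the peptide-loading factor for class II molecules, gave 1.27, 1.22 and 1.26 (mean 1.25 ± 0.02, SD, adjusted p = 5.89e-06), and H2-DMb2 0.79, 0.28 and 0.48 (mean 0.52 ± 0.26, SD, adjusted p = 0.00447). H2-Q7, a class Ib molecule, gave 1.40, 1.11 and 0.77 (mean 1.09 ± 0.32, SD, adjusted p = 0.000118). These genes have near-identical neighbours, so it is uncertain how their signal divides among the copies. Ramp2, which carries the adrenomedullin receptor to the cell surface, rose by 1.02 ± 0.08 (SD, n = 3, adjusted p = 2.49e-05). The small heat shock protein Cryab gave 0.84, 0.99 and 0.75 (mean 0.86 ± 0.12, SD, adjusted p = 8.33e-05), while its head-to-head partner Hspb2 gave 0.17, 0.22 and 0.19 and missed the test (mean 0.19 ± 0.02, SD, adjusted p = 0.0885). AI661453 rose by 0.73 ± 0.03 (SD, n = 3, adjusted p = 0.000145).

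Of the 8 called genes that fell most among those measured on all 3 arrays, 6 had a partner that missed the test. Over all 374 pairs with both genes measured, 146 had only 1 gene called and 38 had both, so such partners were common. Mapk1ip1 gave -1.2, -1.06 and -1.01 (mean -1.09 ± 0.10, SD, adjusted p = 1.81e-05), and its partner Ppp2r2d, a regulatory subunit of phosphatase PP2A, gave -0.23 and -0.48 on 2 arrays (adjusted p = 0.0387). Nme7, of the nucleoside diphosphate kinase family, gave -1.02, -0.87 and -0.86 (mean -0.92 ± 0.09, SD, adjusted p = 4.75e-05), whereas its partner Blzf1, a Golgi protein, averaged 0.02 ± 0.15 (SD, n = 3, adjusted p = 0.894). Iqcg, a protein of the sperm flagellum, gave -0.90, -0.76 and -0.80 (mean -0.82 ± 0.07, SD, adjusted p = 8.16e-05). Its partner Rpl35a, of the large ribosomal subunit, averaged -0.08 ± 0.12 on 2 arrays (SD, adjusted p = 0.597).

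The same held for other pairs. Mllt11 fell by 0.82 (adjusted p = 0.000246) and its partner Cdc42se1, an effector of Cdc42, averaged -0.14 ± 0.25 on 2 arrays. Bet1l, a Golgi SNARE, fell by 0.80 (adjusted p = 0.000234) and Ric8a, a chaperone of G protein subunits, averaged 0.10 ± 0.13 on 2 arrays. Fahd1, a mitochondrial acylpyruvase, fell by 0.77 (adjusted p = 0.000143) and Hagh, the glyoxalase that frees lactate, averaged -0.04 ± 0.13 (SD, n = 3). 3110009E18Rik fell by 0.75 (adjusted p = 0.000306) and Dbi, the acyl-CoA-binding protein, averaged 0.06 ± 0.12 (SD, n = 3). None of these 4 partners passed the test; the difference between partners was not tested. The MeDIP ratio at these promoters was small, such as 0.08 ± 0.11 at Mapk1ip1, 0.10 ± 0.07 at Nme7 and 0.18 ± 0.08 at Iqcg and Rpl35a (SD, n = 7 each).

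Both genes of 374 pairs were measured. At 29 of them both were called in the same direction, 9 higher and 20 lower, at 9 they were called in opposite directions, at 146 only 1 was called and at 190 neither. Singly, 10.7% of tested genes at shared promoters were higher and 18.2% lower, beside 16.2% and 16.1% of all genes. Outside chromosome 8, a split chosen after the data were seen, 24 pairs were called in the same direction. Over all 374 pairs the log2 ratios of the partners had a Pearson correlation of 0.272 and a Spearman correlation of 0.214, which were 0.197 and 0.179 over the 346 pairs outside chromosome 8 and were 0.298 and 0.191 over the 187 head-to-head pairs with starts 0 to 300 bp apart. The correlations are across pairs measured on the same 3 arrays, and the pairs are not independent replicates. With median centring in place of loess 2 pairs were called in the same direction.

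**Figure D4:**
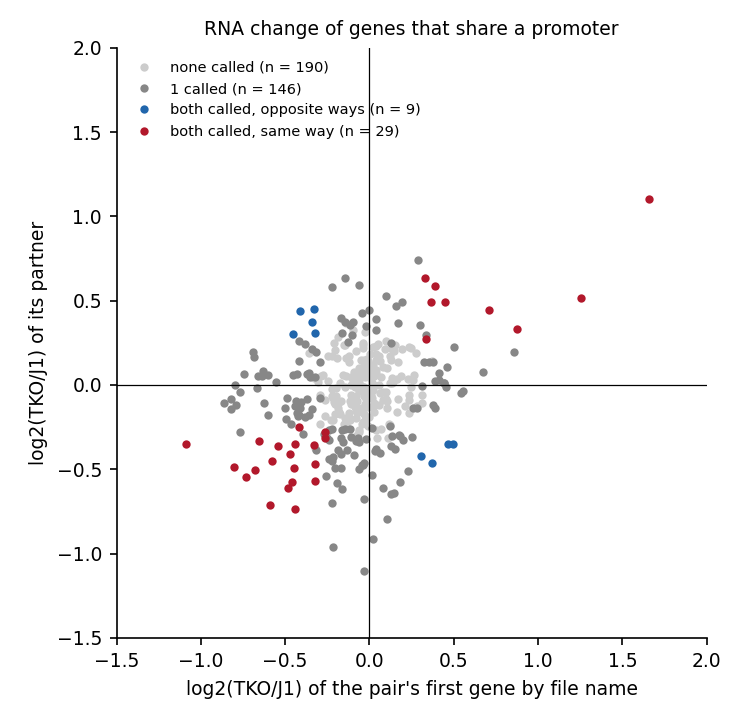
RNA log2 ratios (TKO over J1) of the 2 genes of each of 374 pairs at shared promoters, with a point per pair coloured by whether both partners were called in the same direction (29 pairs), in opposite directions (9), only 1 was called (146) or neither (190). Col4a1 and Col4a2 lie at the upper right, and most pairs lie close to 0 on both axes.

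Several pairs fell together. Mbd4, the glycosylase that binds methylated CpGs, gave -0.58 and -0.60 on 2 arrays (mean -0.59 ± 0.01, SD, adjusted p = 0.00272), and its partner Ift122, of the transport machinery of cilia, gave -0.83, -0.63 and -0.68 (mean -0.71 ± 0.11, SD, adjusted p = 0.00023). Every measured array of both genes was below 0. Bckdha, of the branched-chain ketoacid dehydrogenase, fell by 0.73 and Exosc5, of the RNA exosome, by 0.55 (adjusted p = 0.000187 and 0.00133). Fam162a fell by 0.80 and Ccdc58 by 0.49, each on 2 arrays (adjusted p = 0.000558 and 0.00797). The MeDIP ratio was 0.13 ± 0.09 at the Mbd4 label and 0.37 ± 0.12 at the Ift122 label (SD, n = 7 each).

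Other pairs moved apart. Cc2d1a, a C2-domain protein, gave 0.45 and 0.42 on 2 arrays, while 4930432K21Rik gave -0.44, -0.38 and -0.42 (adjusted p = 0.0115 and 0.00354). Cops2, of the COP9 signalosome, averaged 0.37 ± 0.01 (SD, n = 2), and Galk2, a sugar kinase, -0.46 ± 0.18 (SD, n = 3, adjusted p = 0.0221 and 0.00425). Lrrc41 averaged 0.50 ± 0.15 (SD, n = 3) and Uqcrh, of respiratory complex III, -0.35 ± 0.24 (SD, n = 2), the latter at an adjusted p of 0.0499. Smim7 averaged 0.47 ± 0.27 and Tmem38a, a potassium channel of the endoplasmic reticulum, -0.35 ± 0.17 (SD, n = 3 each, adjusted p = 0.0084 and 0.0159).

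Of 18 pairs known as head-to-head examples, 12 were on the array as shared promoters. Of the chaperonin pair, Hspd1 gave 0.43 and 0.45 (mean 0.44 ± 0.01, SD, n = 2, adjusted p = 0.0109), and Hspe1 gave -0.23 and 0.25, with opposite signs on its 2 arrays. The promoter they share, printed above, had MeDIP ratios of 0.11 ± 0.08, -0.05 ± 0.13 and 0.09 ± 0.11 at its 3 labels (SD, n = 7 each). Gart, of purine synthesis, and Son, a splicing factor, both fell, by 0.46 and 0.58 (adjusted p = 0.00899 and 0.00351). Prkdc, the DNA-dependent kinase, gave -0.42, -0.55 and -0.64 (mean -0.54 ± 0.11, SD, adjusted p = 0.0012), while its partner Mcm4, of the replicative helicase, averaged 0.02 ± 0.17 (SD, n = 3, adjusted p = 0.916).

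Cox4i1, of respiratory complex IV, averaged -0.36 ± 0.03 (SD, n = 3, adjusted p = 0.0073) and Emc8, of the membrane protein insertion complex, -0.18 ± 0.18 (SD, n = 2, adjusted p = 0.253). Surf1, Med22, Rpl7a, Mrps12, Sars2, Ranbp1 and Col4a4 lay between -0.07 and 0.27 and none of these passed the test. Trmt2a, Surf2, Col4a3, Tap1 and Psmb9 were not tested. The CpG-poor stretch of Mrps12 and Sars2 and the CpG-rich one of Ranbp1 thus both belonged to pairs with small values, at -0.06 ± 0.13 and -0.01 ± 0.24 (SD, n = 3 each) and at 0.01 ± 0.16 (SD, n = 2). Their MeDIP ratios were 0.13 ± 0.09 at the Mrps12 label and 0.04 ± 0.07 at the Sars2 label, and 0.24 ± 0.10 at the Ranbp1 label and -0.02 ± 0.06 at the Trmt2a label (SD, n = 7 each).

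Gene groups known for head-to-head promoters are given as counts, to be read beside 10.7% higher and 18.2% lower of all tested genes at shared promoters and 16.2% and 16.1% of all genes. Of 32 tested DNA repair and replication genes at shared promoters, 3 were higher and 8 lower, with a median of -0.186, beside 5 and 12 of 66 such genes elsewhere, with a median of -0.115. Those that rose include Orc6, which gave 0.73, 0.50 and 0.89 (mean 0.71 ± 0.19, SD, adjusted p = 0.000459) and whose partner Vps35 averaged 0.45 ± 0.04 (SD, n = 2, adjusted p = 0.0104), and Smc6, of the repair complex of that name, which averaged 0.63 ± 0.21 (SD, n = 3, adjusted p = 0.000976) beside -0.14 ± 0.05 for its partner Gen1. Orc6 and Vps35 lie on chromosome 8, where more genes at shared promoters were higher than lower. The group's 79 regions had a median MeDIP ratio of 0.127, beside 0.112 over all shared promoters.

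Of 53 tested mitochondrial genes 3 were higher and 6 lower, with a median of -0.063, beside 9 and 12 of 134 elsewhere. Ndufa13, of respiratory complex I, averaged 0.62 ± 0.01 (SD, n = 2, adjusted p = 0.00213), while Ndufb3 and Ndufb5 of the same complex averaged -0.40 ± 0.05 (SD, n = 2) and -0.38 ± 0.17 (SD, n = 3). Ndufa13 lies on chromosome 8, where 25 of 71 tested genes at shared promoters were higher. Ndufb3 lies on chromosome 1 and Ndufb5 on chromosome 3. Of 13 chaperones and tRNA synthetases 3 were higher and none was lower, with a median of 0.129, beside 10 and 3 of 55 elsewhere. The 3 were Hspd1, Dnajc14 at 0.40 ± 0.14 (SD, n = 2) and the mitochondrial synthetase Ears2 at 0.25 ± 0.10 (SD, n = 3). Of 10 tested histone genes none was called, with a median of -0.153, beside 1 higher and 2 lower of 15 elsewhere. Of the germ cell genes only Stag3, a cohesin subunit of meiosis, was at a shared promoter, at 0.32 ± 0.04 (SD, n = 2, adjusted p = 0.0436), beside 21 higher and 2 lower of 30 elsewhere. The median MeDIP ratio was 0.126 over 119 mitochondrial regions, 0.167 over 33 histone regions and 0.123 over 32 regions of chaperones and synthetases.

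The genes at the called MeDIP regions were few, and their counts are given as a description. Of the 28 genes at the labelled TKO-side calls 21 were on the array and 7 were detected in J1, and of these 7 tested, Rnase4 (0.57) and Miip (0.48) were higher and Rbak (-0.39) was lower, beside 16.2% of all genes higher and 16.1% lower. Of the 24 genes at the labelled J1-side calls 21 were on the array and 14 were detected and tested. Among these 6 were higher, namely Abce1 (0.60), Hsp90b1 (0.59), Cc2d1a (0.44), 1700030K09Rik (0.34), Calr3 (0.27) and Wrn (0.26), and 4930432K21Rik (-0.41) was lower. All of the higher genes but Hsp90b1 lie on chromosome 8, where 25 of all 71 tested genes at shared promoters were higher.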

How the data were processed

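The authors deposited Agilent scanner output (Feature Extraction 8.5, per the submitters' processing notes) and tables of log10 ratios. Per the file headers, the MeDIP files hold processed signal intensity, background-subtracted and dye-normalized by the scanner software, for 14 arrays in 2 parts. The RNA files hold mean and background intensity for 3 arrays deposited as 1 sample. The deposited log10 ratios served as an alternative. No source used here names the probes' genome build, so probe coordinates are left out.

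MeDIP log2 ratios were centred on each array's median over promoter probes, uneven spots were left out, and probes were averaged per label, array part and class. The normexp alternative for MeDIP started from mean and background intensity, with an offset of 50, the same centring and no dye normalization by the scanner. limma 3.58.1 in R 4.3.3 tested each region against 0, with the parts fitted apart and p-values adjusted over both by Benjamini-Hochberg. RNA was corrected by normexp (offset 50) and loess. Probes well above background in either line on all 3 arrays were kept, and the brightest probe per gene was tested with limma. Joins used Python 3.11.15 with pandas 2.3.3. Old gene names were matched to RefSeq genes by symbol (927), synonym (605) or accession (43).

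In simulated data 92% and 88% of regions changed by 0.6 were recovered on MeDIP parts 1 and 2, and 37.5%, 87% and 98.5% of genes changed by 0.5, 1 and 2 on the RNA arrays. Small RNA differences are therefore often missed. The RNA simulation held 8814 genes, fewer than the 13692 tested. The MeDIP simulations held 11610 of 11696 regions on part 1 and 11376 of 11621 on part 2. Recovery was not measured for the genes and regions left out, and may be lower for genes measured on fewer arrays.

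Named by rule were the 10 lowest MeDIP regions and the 8 highest with all 7 arrays of the same sign and both names matched, the 8 highest and 8 lowest RNA calls among genes measured on all 3 arrays, with their partners, the 6 pairs called together, the 4 called apart with the largest changes, up to 3 pairs per gene list and the known pairs, of which some are not reported here. The remaining MeDIP calls and the MeDIP values beside RNA results were added after their values were seen. The regions, pairs and lists were chosen with earlier results of these data known. Alternatives covered background correction, centring, probe filters, distance limit, slide and leaving out each replicate.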

Additional observations from a re-analysis of the deposited data

Results flagged for a closer look

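At 4 of 60 MeDIP results examined for outlying arrays, 1 of the 7 arrays stood far from the others, where chance flags about 1 in 20 groups. At Zbtb37 and Gas5 replicate 3 gave 3.19 against a median of 0.25. At AI449705, the label of the Hsp90b1 and Ttc41 promoter, replicate 3 gave 1.72 against a median of 0.41. At Capza3 replicate 6 gave -1.42 against a median of -0.78. At Surf2 replicate 1 gave -0.07 against a median of -0.15, so all its arrays stayed below 0.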

How the results depend on the processing

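The count of shared promoters called on the labelled TKO side, 15, became 2 under normexp, 6 with probes above background in both channels and 107 with no size limit, and 14 to 18 when a replicate was left out. The count on the labelled J1 side, 13, became 1 under normexp, 6 with centring on the mode, 8 with at least 2 probes, 838 with no size limit, 5 without chromosome 8 (chosen after seeing the data) and 9 to 17 with a replicate left out. Their median ratio was 0.068 under normexp, 0.079 with the mode and 0.106 to 0.118 with a replicate left out. The counts of calls kept were 11 of 15 and 5 of 13 over all 7 such fits. Median centring of the RNA arrays gave 10 higher genes, 32 lower genes, 2 pairs called together and a median of -0.15, and no filter on dim probes gave a median of -0.024. Leaving out an RNA replicate gave 51 to 100 higher genes, 94 to 164 lower, 5 to 23 pairs and a median of -0.055 to -0.041; without replicate 1 or 2 only 615 and 617 genes at shared promoters were tested.

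The sign turned under normexp at Olfr173 (0.17), Fkbp3 (0.15), Olfr1433 (0.09), MOR118 (0.23), Olfr427 (0.12), Smr3 (0.10) and Dab2 (0.14). Col4a2 became -0.01 with the mode, -0.01 with the median over probes and -0.05 at 500 bp, and Mbd4 -0.06 at 500 bp. Among RNA values near 0, median centring gave Blzf1 -0.15, Dbi -0.25, Hspe1 -0.11, Surf1 -0.12, Ranbp1 -0.04, Med22 -0.10 and Mcm4 -0.34. Without replicate 1 Hagh was 0.03, Dbi -0.0048, Sars2 0.0056 and Col4a4 0.05. Without replicate 2 Blzf1 was -0.03, Med22 -0.07, Mcm4 -0.08, Sars2 -0.13 and Col4a4 -0.21, the last 2 keeping their sign. Without replicate 3 Blzf1 was -0.02, Mrps12 0.01 and Sars2 0.10. Sars2 was also 0.03 with Agilent signals, 0.06 with a dye term and 0.03 in the deposited table, Col4a4 0.0087 with a dye term and Rpl35a 0.06 in the deposited table. The cause was not tested. Of the other settings of named regions and genes, 71 MeDIP and 50 RNA values lost a call in the same direction. The slide block could be fitted for part 2 alone. No paired analysis was possible because every value tested is already a ratio of both lines on the same array, which leaves no separate samples of the lines to match by replicate number.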
